A study of Mus musculus with 6 samples.

Results

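The epidermal suprabasal keratins were followed here in the corneal epithelium, and they are the 7 genes Krt1, Krt2, Krt10, Krt77, Krt78, Krt79 and Krt80 out of 17866 genes in the table. They were picked by symbol as a family, and each has 1 row in the table with an estimated count, which may be 0, for each of the 6 libraries. The libraries were bulk RNA-seq of the epithelial layer of C57BL/6 mice at 6 months of age, 3 of genotype WT and 3 labelled Rela-/-, named KO below. Rela encodes the p65 subunit of NF-κB, and in the study it was removed with Krt14-Cre from mice with a floxed allele (Krt14-Cre; Rela f/f), so the deletion follows the Krt14 promoter and not the cornea alone. The same Cre line is also active in conjunctiva, meibomian gland, skin and oral mucosa according to the study. Each library came from an independent biological sample.

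Keratins are the intermediate filament proteins of epithelia, and a filament is built from pairs of 1 acidic type I and 1 basic type II chain. In skin, basal cells make Krt5 and Krt14, and cells that leave the basal layer switch to the pair Krt1 and Krt10, which is the classical early mark of epidermal differentiation. The normal cornea makes Krt5 and Krt12 instead and does not cornify. Of the 7 genes, Krt10 is the only type I keratin and lies on chromosome 11, while the other 6 are type II keratins on chromosome 15. All 7 are on the minus strand in the GENCODE M21 annotation.

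Suprabasal keratins of skin are known for long glycine-rich ends on either side of the coiled-coil rod, and these ends differ widely among the 7 genes. Glycine codons, all of the form GGN, made up 138 of 637 codons of Krt1 (21.7%), 24.4% of Krt10, 25.7% of Krt2, 19.0% of Krt78, 15.7% of Krt77, 10.7% of Krt79 and 5.53% of Krt80, against a median of 6.03% over 21549 coding genes of GENCODE M21 (GRCm38) and 8.53% over its 53 keratins. The 120 bases of coding sequence richest in such codons are shown for the pair that differed most between the genotypes, for Krt2, which is glycine-rich and had at most 3 counts, and for Krt80, which was highest in WT. Glycine codons are in capitals. They number 29 of 40 codons in Krt1 (codons 97 to 136), 26 in Krt10 (codons 85 to 124), 27 in Krt2 (codons 103 to 142) and 9 in Krt80 (codons 1 to 40).
Krt1: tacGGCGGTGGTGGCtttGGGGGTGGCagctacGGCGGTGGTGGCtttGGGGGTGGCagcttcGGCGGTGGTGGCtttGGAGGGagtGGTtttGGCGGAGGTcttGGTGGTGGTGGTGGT
Krt10: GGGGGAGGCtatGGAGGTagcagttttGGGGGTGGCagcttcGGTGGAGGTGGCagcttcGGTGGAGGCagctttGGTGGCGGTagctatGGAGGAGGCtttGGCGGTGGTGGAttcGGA
Krt2: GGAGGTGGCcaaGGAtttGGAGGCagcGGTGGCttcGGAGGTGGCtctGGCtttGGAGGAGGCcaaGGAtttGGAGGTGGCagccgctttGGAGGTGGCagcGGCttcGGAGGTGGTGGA
Krt80: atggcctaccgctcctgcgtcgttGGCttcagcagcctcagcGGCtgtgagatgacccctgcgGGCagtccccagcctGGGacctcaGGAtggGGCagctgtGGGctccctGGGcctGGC

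The stretch of Krt80 holds glycine codons singly, while those of Krt1, Krt10 and Krt2 hold them in runs broken by other codons, often those of serine and phenylalanine. Such repeats could have made reads hard to place, so the transcripts were searched. Not 1 of the 50-base windows of these genes' transcripts (1 per gene, that with the longest coding sequence) occurred in an annotated transcript of another gene. The deposited counts are estimates that share reads among genes, and they were whole numbers (within 0.005) in every library for Krt1, Krt2, Krt78, Krt79 and Krt80, but not in 4 libraries for Krt10 and in all 6 for Krt77.

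Library totals lay between 20158404 and 20880347 counts, and 3 counts, used here as the floor of detection, corresponded to 0.137 to 0.152 CPM, the count scaled by TMM factors to a library total of 1000000. Such floors cover counting error only. The targeted gene Rela fell from 1871, 1844 and 1855 counts (WT) to 318, 223 and 313 counts (KO), by 2.60 on the log2 scale (edgeR, adjusted p = 2.74e-06). The markers of corneal epithelium were present in every library, and all 6 of them (Krt12, Pax6, Aldh3a1, Tkt, Slurp1 and Upk1b) were lower in KO, with summed levels of 68055 to 68880 CPM in WT and 11587 to 14327 CPM in KO. For comparison, 4022 of all 13305 genes tested were called lower at an adjusted p of 0.05 (edgeR), and 62% in either direction. WT replicate 2 stood apart from the other WT libraries in Krt16, a keratin of stressed epidermis, with 18787 counts against 209 and 360. It was also highest of the WT libraries in Krt14, at 1181 CPM against 239 and 318 CPM, and in Lor, with 35 counts against 5 and 9.

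Of the 7 suprabasal keratins, 4 rose in KO (Krt1, Krt10, Krt78 and Krt79), 1 was tested and did not pass (Krt80), and 2 had too few counts to be tested (Krt2 and Krt77). None was called lower. Among all 13305 genes tested, 62% were called in either direction at an adjusted p of 0.05 and 31.8% were called higher. At the study's threshold, an adjusted p of 0.001 or less and a fold of at least 2, Krt1 and Krt10 were called, against 11.6% of all genes called higher. On the CPM scale, 4 of the 5 tested keratins had every KO library above every WT library, as had 34.7% of all genes. Krt79 passed the filter on low counts only through its KO libraries, so these counts include a gene that could pass in 1 direction alone. In bulk tissue, more cells that make a keratin and more of it per cell cannot be told apart.

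**Figure D1:**
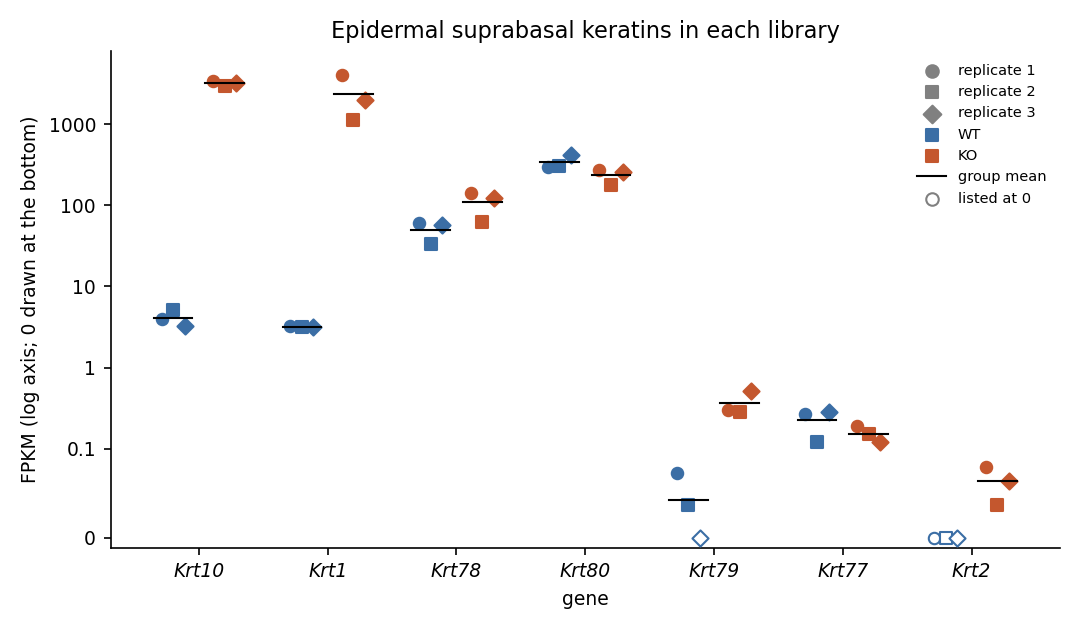
FPKM of the 7 suprabasal keratins in each library, on a log axis with 0 drawn at the bottom; blue marks are WT, orange marks KO, the marker shape gives the replicate and the black line the group mean (n = 3). Krt10 and Krt1 sit between 3.12 and 5.13 in WT and between 1111 and 3982 in KO, while the marks of Krt80 overlap.

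Krt1, the type II partner of the early differentiation pair, was detected at a low level in WT and was among the most abundant genes in KO (GRCm38 chr15:101845426-101850786). Its WT libraries held 167, 159 and 162 counts, or 3.29, 3.12 and 3.16 FPKM, the count scaled to gene length in kilobases and to library depth. The KO libraries held 203120, 55117 and 101697 counts, or 3982, 1111 and 1979 FPKM. The WT values lay within a few counts of each other and every KO library was far above them, but KO replicate 1 had several times the level of KO replicate 2. The mean rose from 7.57 ± 0.152 to 6040 ± 3854 CPM (SD, n = 3), a change of 9.64 on the log2 scale (95% interval 8.33 to 10.95, SE 0.571) at an adjusted p of 4.20e-06 by edgeR. Ranked by FPKM, Krt1 moved from place 9079, 9212 and 9012 in the WT libraries to 14, 74 and 37 in the KO libraries.

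Krt10, the type I partner, gave the same size of change with far less spread (chr11:99385254-99389699). Its counts were 173, 226 and 145 for WT against 146411, 124152 and 140382 for KO. In FPKM these were 3.92, 5.13 and 3.27 against 3360, 2931 and 3199. All 3 KO libraries were close together and none came near WT, where replicate 2 was highest. The mean rose from 8.43 ± 1.88 to 6879 ± 602 CPM, a change of 9.67 on the log2 scale (95% interval 9.12 to 10.22, SE 0.240) at an adjusted p of 1.14e-07 by edgeR. Krt10 ranked 15, 17 and 16 by FPKM in the KO libraries, against 8710, 7967 and 8936 in WT. The coefficient of variation of CPM among KO libraries was 63.8% for Krt1 and 8.75% for Krt10, and among WT libraries it was 2.01% and 22.3%.

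As the 2 proteins pair, their levels per gene length were compared within each library. The FPKM ratio of Krt1 to Krt10 was 0.839, 0.608 and 0.966 in WT and 1.18, 0.379 and 0.619 in KO. The WT ratios lay inside the range of the KO ratios, and in KO replicate 1 alone was Krt1 above Krt10. With the other type II suprabasal keratins added to Krt1, the ratio to Krt10 was 91.7, 66.4 and 144 in WT and 1.31, 0.460 and 0.738 in KO. This sum in WT was almost entirely Krt80 and Krt78.

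Krt78, a type II keratin of the suprabasal layers of stratified epithelia, was already well expressed in WT and rose less (chr15:101946001-101996624 in the table, a span that runs to within 87 bases of Krt8). Its counts were 4356, 2359 and 4075 for WT against 10209, 4321 and 9008 for KO. Replicate 2 was the lowest in both genotypes, and the raw count of KO replicate 2 was just under that of WT replicate 1. After scaling, the lowest KO library (217 CPM) stood above the highest WT library (200 CPM). The mean rose from 167 ± 50.05 to 394 ± 157 CPM, a change of 1.24 on the log2 scale (95% interval 0.47 to 1.997, SE 0.332) at an adjusted p of 0.0112 by edgeR. Tested against a fold of 2 in place of no change (edgeR glmTreat), the adjusted p was 0.413.

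Krt79, which marks the upper hair follicle canal and sebaceous duct, remained close to the floor (chr15:101929332-101940324). Only 2, 1 and 0 counts were found in WT, against 13, 12 and 23 in KO. The groups did not overlap, and each WT library was at or under 3 counts. Set against 3 counts, the mean of the KO libraries was at least 5.74-fold higher. The test was passed at an adjusted p of 0.00107 (edgeR), and the fitted log2 fold change of 3.94 depends on the small count that edgeR adds. In FPKM the highest KO library reached 0.52.

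Krt80, a keratin found in many epithelia close to desmosomes, was the most abundant of the 7 in WT and the only tested one whose fold change was below 0 (chr15:101348315-101370125). The WT libraries had 16346, 17163 and 23254 counts and the KO libraries 15752, 9874 and 14717. WT replicate 3 was high, KO replicate 2 was low, and the other 4 libraries lay close together, so that the groups overlapped on the CPM scale. The means of 883 ± 191 CPM for WT and 675 ± 159 CPM for KO differed by -0.39 on the log2 scale (95% interval -0.87 to 0.09, SE 0.209), with an adjusted p of 0.14 by edgeR. The interval includes 0 and a fall of up to 0.87 on the log2 scale.

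Krt2 and Krt77 were at or near the floor in both genotypes. Krt2, a keratin of the uppermost living layers of epidermis (chr15:101810689-101818169), had 0 counts in each WT library and 3, 1 and 2 in KO, and no fold is given because all 6 libraries were at or under 3 counts. Krt77, in human skin a keratin of sweat gland ducts (chr15:101858731-101869706), had 9.14, 4.05 and 9.56 estimated counts in WT and 6.52, 5.05 and 4.06 in KO. Its groups overlapped, and in a fit without the filter on low counts the log2 fold change was -0.42 (SE 0.528, 95% interval -1.63 to 0.78, adjusted p = 0.527, edgeR). In the same fit Krt2 had an adjusted p of 0.049, and DESeq2 gave it none. Krt9, the keratin of sole and palm skin, had 0 counts in each WT library and 6, 7 and 6 in KO.

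Ordered by mean FPKM (SD, n = 3), the WT epithelium had Krt80 at 337 ± 64.9, Krt78 at 50.03 ± 15.1, Krt10 at 4.11 ± 0.944, Krt1 at 3.19 ± 0.0889 and Krt77 at 0.223 ± 0.0896. Krt79 (0.0233 ± 0.0252) and Krt2 (listed at 0) came last. Among neighbours in this order, Krt10 and Krt1 overlapped between libraries, and Krt79 and Krt2 shared a value of 0. In KO the order was Krt10 at 3164 ± 217, Krt1 at 2357 ± 1472, Krt80 at 236 ± 53.1, Krt78 at 109 ± 42.1, Krt79 at 0.367 ± 0.133, Krt77 at 0.153 ± 0.0351 and Krt2 at 0.04 ± 0.02. Krt10 and Krt1 again overlapped, and the other neighbours did not. In WT, Krt80 gave 82.7% and Krt78 15.8% of the counts of the 7 genes, while in KO Krt1 and Krt10 together gave 92.3 ± 1.06%, up from 1.55 ± 0.415%.

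Summed, the 7 genes took 0.110 ± 0.0197% of all counts in WT (0.0958 to 0.132%) and 1.35 ± 0.430% in KO (0.960 to 1.81%). They took 1.05 to 1.59% of keratin counts in WT and 6.44 to 12.2% in KO. Without Krt1 the share of all counts in KO was 0.768 ± 0.0740%, so the spread of the sum came mostly with Krt1. Krt1 and Krt10 were still not the most abundant keratins of the KO epithelium. Krt10 was 7.58 ± 0.911% of type I keratin FPKM in KO, against 0.016 ± 0.00306% in WT. Krt13, the type I keratin of conjunctiva and oral epithelium, was 54.9 ± 5.65% in KO and 4.97 ± 1.23% in WT. Krt12, the corneal type I keratin, was 9.88 ± 2.30% in KO and 87.2 ± 2.58% in WT. Krt1 was 7.02 ± 4.21% of type II keratin FPKM in KO, against 0.0165 ± 0.00136% in WT, where Krt5 held 65.8 ± 2.71%. Summed over all keratins, the ratio of type II to type I FPKM was 0.740 to 0.772 in WT and 0.772 to 0.826 in KO.

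**Figure D2:**
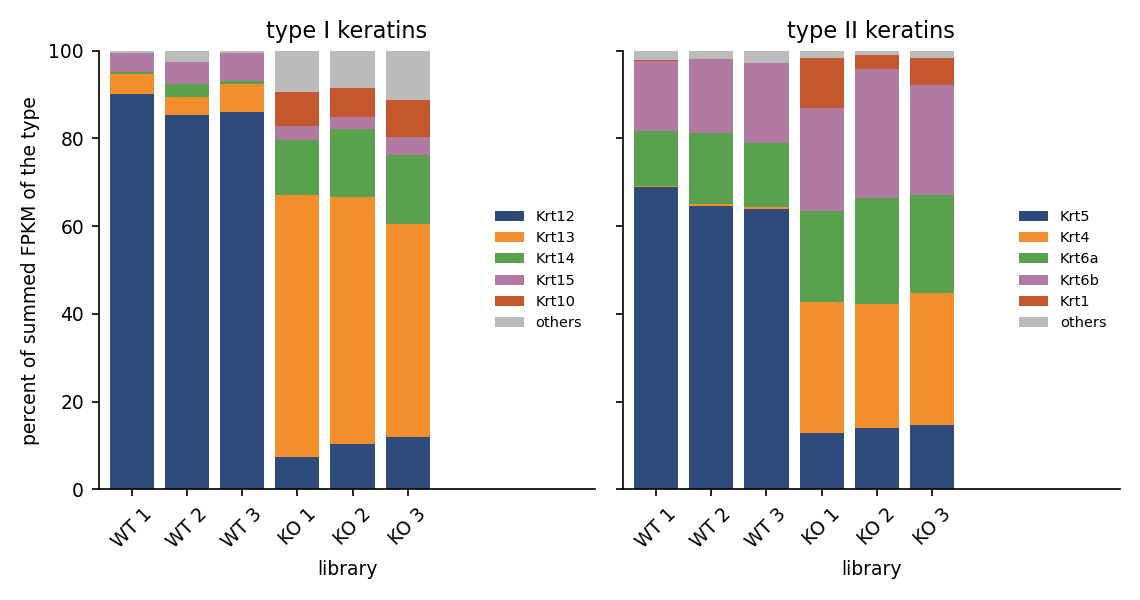
Percent of summed type I (left) and type II (right) keratin FPKM taken by named genes in each library, with all other keratins of the type in grey. Krt12 and Krt5 fill most of the WT bars, and Krt10 and Krt1 appear in the KO bars at 6.59 to 8.38% and 3.24 to 11.6%.

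The keratin genes sit in clusters on these chromosomes, and 27 of the 52 listed keratins were tested. Of the 22 tested keratins outside the family, 16 were higher, 2 (Krt5 and Krt12) were lower and 4 did not pass, where 31.8% of all genes were called higher and 62% in either direction. The 16 include genes, such as Krt24, that passed the filter on low counts only through KO. Type II genes in the order Krt2, Krt1, Krt77, Krt76, Krt4, Krt79 and Krt78 are direct neighbours on chromosome 15. Along that row Krt2 and Krt77 stayed at or near the floor on either side of Krt1, from which they lie 27257 and 7945 bases away. Krt76 and Krt4, keratins of oral and other mucosal epithelium, rose by 7.06 (SE 0.812) and 7.19 (SE 0.393) on the log2 scale, with adjusted p of 1.31e-04 and 2.78e-06 by edgeR. Krt4 lies 4597 bases from Krt79 and reached 21745 CPM in KO, where Krt79 reached 0.802 CPM. On chromosome 11, Krt10 lies between Krt28, a hair follicle keratin with at most 0.209 CPM in a group mean, and Krt12, which fell by 2.36 on the log2 scale (edgeR, SE 0.174, adjusted p = 1.29e-05). Krt80 lies apart at the other end of the type II cluster beside Krt7, a simple epithelial keratin that rose by 1.13 on the log2 scale (edgeR, SE 0.284, adjusted p = 0.00828).

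**Figure D3:**
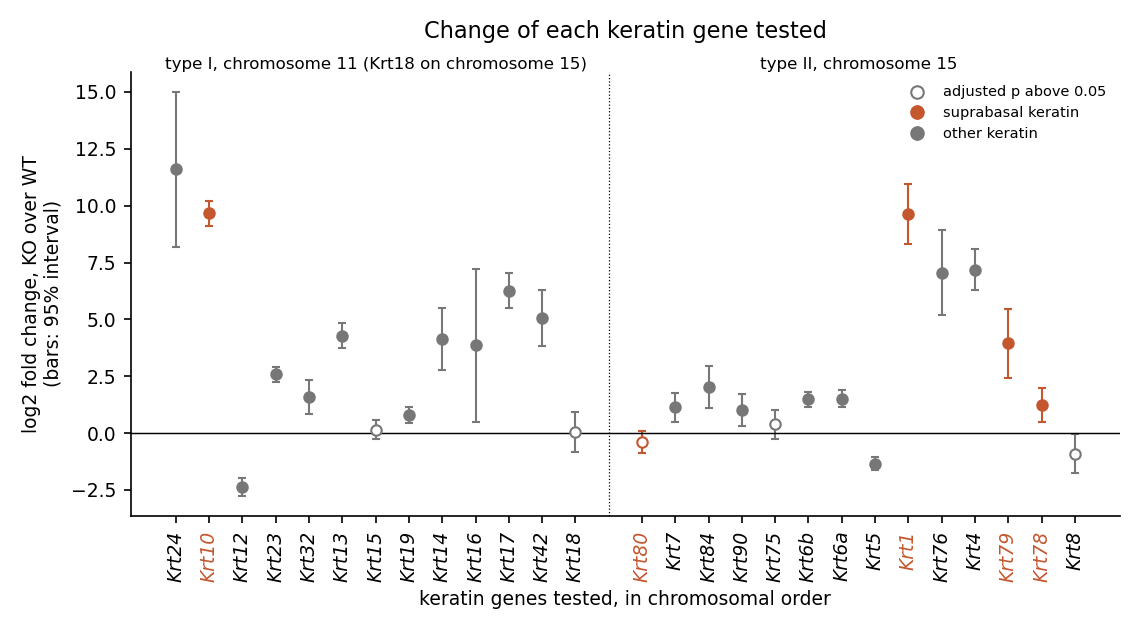
Log2 fold change of KO over WT for the 27 keratins tested, in chromosomal order within each type, with 95% intervals from edgeR; orange marks are suprabasal keratins, grey marks other keratins, and open marks did not pass an adjusted p of 0.05. Krt10 (9.67) stands next to Krt12 (-2.36), and Krt1 (9.64) stands near Krt76 (7.06) and Krt4 (7.19).

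RefSeq promoter windows, from 250 bases before to 50 bases after the gene start (GRCm38.p6), were found for 5 of the 7 genes, all but Krt1 and Krt80. Those of Krt10, from the pair that rose most, and of Krt78, which rose less and did not pass against a fold of 2, are shown on their gene strand. Capitals mark matches on either strand to TATAAA, to TGANTCA (the AP-1 form), to a loose form of the NF-κB site (GGG and CC around any 5 bases) or to CACCC (the form bound by Krüppel-like factors). The Krt10 window is chr11:99389315-99389614 (minus strand) and the Krt78 window is chr15:101954238-101954537 (minus strand). They surround the gene starts of GENCODE M21 at positions 99389364 and 101954287, whereas the spans in the deposited table run 335 and 42337 bases further upstream, so the windows do not lie at the ends of those spans.
Krt10: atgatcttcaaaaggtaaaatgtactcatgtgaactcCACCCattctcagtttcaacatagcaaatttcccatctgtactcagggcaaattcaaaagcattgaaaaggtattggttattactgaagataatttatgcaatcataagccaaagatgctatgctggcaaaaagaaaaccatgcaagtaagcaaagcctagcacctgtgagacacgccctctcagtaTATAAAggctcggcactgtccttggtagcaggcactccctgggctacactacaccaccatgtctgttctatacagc
Krt78: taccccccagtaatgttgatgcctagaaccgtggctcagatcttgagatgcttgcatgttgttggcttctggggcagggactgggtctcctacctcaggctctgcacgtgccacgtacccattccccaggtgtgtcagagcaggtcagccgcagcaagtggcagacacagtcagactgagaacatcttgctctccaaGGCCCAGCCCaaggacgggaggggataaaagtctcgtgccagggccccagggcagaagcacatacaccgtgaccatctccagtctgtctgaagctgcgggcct

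The Krt10 window held TATAAA at positions -26 to -21 from the start and CACCC at -213 to -209. The Krt78 window held the loose NF-κB form on its other strand at -53 to -44. Among the 5 windows, TATAAA was in 1 (Krt10), the loose NF-κB form in 2 (Krt78 and Krt79, with overlapping matches in Krt79), CACCC in 3 (Krt10, Krt2 and Krt79) and TGANTCA in 0. Of 32851 windows of this length, 13.6%, 50.8%, 57.5% and 7.81% held these motifs, in that order. A match is only a description of the letters in these windows.

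The KO libraries differed among themselves in the same order for several of these keratins. Krt1 was highest in KO replicate 1, lower in replicate 3 and lowest in replicate 2, and the same order was found in Krt10, Krt78 and Krt80, in 4 of the 5 tested keratins and in 20.6% of all genes tested. The size of the gap varied. The CPM ratio of KO replicate 1 to KO replicate 2 was 3.72 for Krt1, 2.39 for Krt78, 1.61 for Krt80 and 1.19 for Krt10, whereas the median over all genes was 0.992 and 2.37% of genes had a ratio of 2 or more. Among the 18 tested genes of the spinous and granular layers, the order was found in 8 and the ratio ranged from 0.809 to 6.81 with a median of 1.25, and it was 2 or more in 4 of them. The highest was Flg, encoding filaggrin (6.81), followed by Lor, encoding loricrin (3.53), while Krtdap, a secreted protein of suprabasal keratinocytes, was at 0.882. Among the mucosal keratins the ratio was 5.62 for Krt76 and 1.10 for Krt4. The order was chosen after the values of Krt1 were seen.

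**Figure D4:**
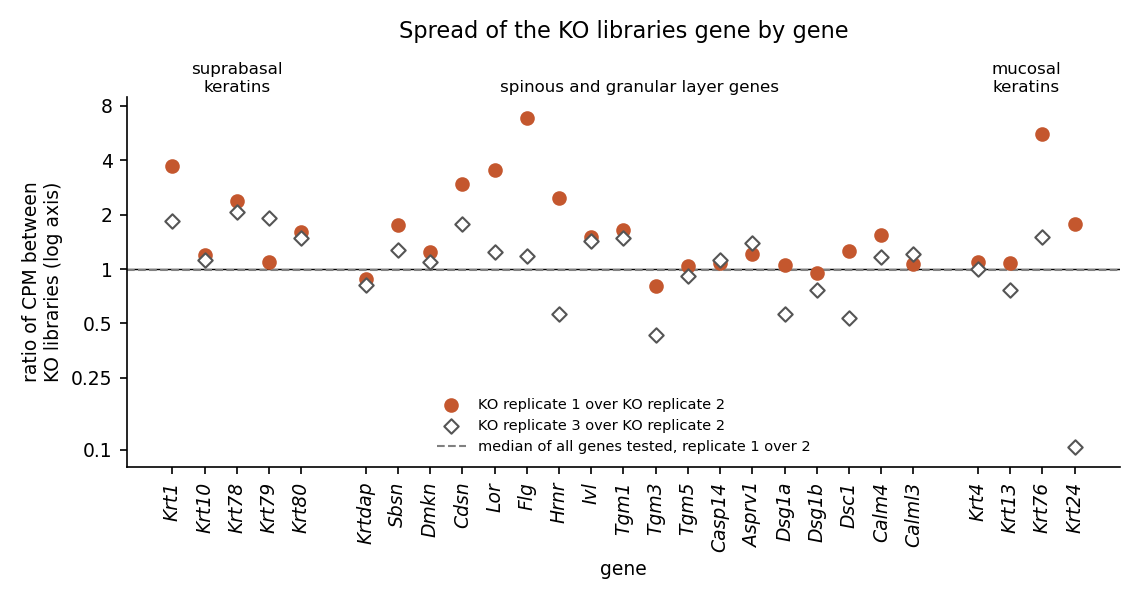
Ratio of CPM of KO replicate 1 (filled) and replicate 3 (open) to KO replicate 2 for suprabasal keratins, spinous and granular layer genes and mucosal keratins, on a log axis, with the all-gene median dashed. Krt1 (3.72), Flg (6.81) and Krt76 (5.62) lie far above 1, while Krt10 (1.19) and most of the spinous and granular layer genes lie nearer to it.

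The genes whose profiles over the 6 libraries were nearest to those of the pair included several genes known from the upper layers of skin. Distances were taken between centred log2(CPM + 1) profiles over 10453 genes with a mean count of at least 100. Nearest to Krt1 were Klk14 (0.797), a skin protease of the kallikrein family, Calm4 (0.946), a calmodulin-like protein, Lor (1.12), Klk13 (1.22) and Flg (1.26). Nearest to Krt10 were Klk13 (0.537), Calm4 (0.620), Them5 (0.849), Dmkn (0.912), encoding dermokine, and Endou (0.912). The distance between Krt1 and Krt10 themselves was 1.29, larger than the distance of Krt1 to any of its 5 nearest genes. The added 1 CPM shrinks the step of genes near 0 in WT. Klk13 and Endou had edgeR log2 fold changes of 12.20 and 11.31, against 9.67 for Krt10. As the profiles are dominated by the step between 3 WT and 3 KO libraries, this likeness is a description.

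Genes of the spinous and granular layers, which are switched on together with or after Krt1 and Krt10 in skin, mostly rose. Of 19 listed genes 18 were tested, and 14 were higher (77.8%, against 31.8% of all genes), 2 lower and 2 did not pass. The median log2 fold change was 6.99, and 0.01 over all genes. The list includes genes, such as Krtdap, that passed the filter on low counts only through KO. Dmkn rose from 1.37 ± 1.05 to 1807 ± 204 CPM (edgeR log2 fold change 10.36, SE 0.547, adjusted p = 2.42e-06) and Lor from 0.761 ± 0.757 to 1668 ± 1207 CPM (11.09, SE 0.831, adjusted p = 1.40e-05). Krtdap reached 1275 ± 132 CPM from 0.0778 ± 0.0967 CPM, and Calm4 reached 1294 ± 290 from 1.03 ± 0.294 CPM. The most abundant members of the list in WT behaved otherwise, since Calml3, another calmodulin-like gene, fell slightly (edgeR log2 fold change -0.43, SE 0.140, adjusted p = 0.0254) and Asprv1, a protease that cuts filaggrin, had a log2 fold change of 0.09 (adjusted p = 0.691).

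Of 22 listed and tested transcription factors tied to epidermal differentiation 7 were higher, 5 lower and 10 did not pass, with a median log2 fold change of 0.06. The share called higher, 31.8%, was that of all genes. Among the most abundant, Elf3, an ETS factor of epithelial differentiation, fell from 1001 ± 127 to 469 ± 65.1 CPM (edgeR log2 fold change -1.10, SE 0.143, adjusted p = 2.66e-04). Klf4, a Krüppel-like factor of the skin barrier, had -0.32 (adjusted p = 0.113), Zfp750 -0.20 (adjusted p = 0.0889), Ehf 0.15 (adjusted p = 0.318) and Hopx 0.09 (adjusted p = 0.666). The last 4 did not pass the test.

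Other keratin groups moved alongside. All 4 mucosal keratins (Krt4, Krt13, Krt24 and Krt76) and all 4 stress keratins (Krt6a, Krt6b, Krt16 and Krt17) were higher, as were 3 of 5 tested simple epithelial keratins (Krt7, Krt19 and Krt23). Over all genes tested, 31.8% were called higher and 62% in either direction. Krt24, with 0, 3 and 1 counts in WT, passed the filter on low counts only through KO. Krt16, at 9.58, 874 and 17.0 CPM in WT, was called at an adjusted p of 0.0479 (edgeR, SE 1.47). Of the basal keratins, Krt14 was higher, Krt5 lower and Krt15 did not pass.

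Markers of other cells that an epithelial sheet could carry were summed in each library. Hair follicle markers, which would come with skin, summed to 3.23 to 7.70 CPM in WT and 10.98 to 11.6 CPM in KO, of which Tchh alone held a mean of 4.10 CPM in WT and 10.3 CPM in KO. It was the only 1 of the 11 hair follicle genes in the table that was tested, and it was higher in KO, while Krt35, Krt72, Krt73 and Krt86 had at most 3 counts in any library. Sebaceous and meibomian gland markers summed to 8.56 to 12.04 CPM in WT and 64.1 to 82.0 CPM in KO, with 4 of 6 tested genes higher (Mgst1, Cidea, Far2 and Awat2). Mgst1 alone held a mean of 3.19 CPM in WT and 49.5 CPM in KO, and Awat2 held 0.295 and 0.737 CPM. Soat1 and Scd3 did not pass. Goblet cell markers, which mark conjunctiva, summed to 1.02 to 2.03 CPM in WT and 7.27 to 29.8 CPM in KO, with 3 of 3 tested genes higher. Muc5ac had 0 counts in each WT library, so it passed the filter on low counts only through KO and could pass in 1 direction alone. Spdef (3.18, 6.22 and 6.96 estimated counts in WT) and Awat2 (7, 5 and 7) also passed that filter only through KO. The same holds for Cidea (1, 7 and 14) and Far2 (5.14, 10.73 and 17.73), so the counts of higher genes include all of these. Of all genes tested, 31.8% were called higher and 62% in either direction.

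Leukocyte markers summed to 27.8 to 33.7 CPM in WT and 41.3 to 56.1 CPM in KO with 3 of 4 tested genes higher. Cd68, which did not pass, made up most of both sums (means of 29.6 CPM in WT and 31.5 CPM in KO). Ptprc rose from 0.402 to 5.27 CPM. Fibroblast markers summed to 12.3 to 16.1 CPM in WT and 7.02 to 10.99 CPM in KO with 3 higher and 1, Pdgfra, lower. Pdgfra made up most of the WT sum (means of 13.1 CPM in WT and 1.21 CPM in KO), so the fall of the sum came with this gene. Col1a1, Col1a2 and Dcn were higher in KO. Endothelial markers summed to at most 0.237 CPM in WT and 0.897 CPM in KO (1 of 1 tested gene higher), lens markers to at most 0.229 and 1.05 CPM (1 of 1 higher), and melanocyte markers to 7.51 to 9.70 CPM in WT and 5.31 to 5.34 CPM in KO (2 of 3 lower). Lyz2, Cd207, Dcn, Col1a2, Pecam1 and Cryaa had at most 4 counts in each WT library. They passed the filter on low counts only through KO, so the counts of higher genes include them. Ptprc (13, 5 and 8 counts in WT) and Col1a1 (1, 26 and 8) also passed that filter only through KO. Every leukocyte, fibroblast, endothelial and lens gene called higher is therefore of this kind. The part of other cells in the rise of Krt1 and Krt10 was not tested.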

How the data were processed

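RNA of the separated corneal epithelium was measured in 6 libraries, grouped by genotype label (3 WT, 3 KO). Per the study's methods, rRNA was depleted and single-end reads of 50 bases came from a BGISEQ machine, but an Illumina kit is given in the labels. The authors aligned reads with Bowtie2 2.2.5 and estimated levels with RSEM 1.2.12 (submitters' processing notes). The deposited table holds RSEM estimated counts, which share ambiguous reads among genes, and the authors' FPKM and TPM values, which divide them by gene length and depth. TPM was used only in an alternative share. The authors' own fold change and p-value columns, from their comparison of the genotypes, were not used. The notes name mm9, but gene positions in the table are those of GRCm38, and strand was taken from GENCODE M21. Whether counting used strand is not given in the sources used here.

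Estimated counts were rounded and compared by edgeR 4.0.16 under R 4.3.3 (TMM, filterByExpr, quasi-likelihood test, genotype only) with Benjamini-Hochberg adjustment over 13305 genes and calls at an adjusted p of 0.05. The standard error is the absolute log2 fold change over the square root of F. Folds against a group at or under 3 counts are lower bounds. Alternatives were DESeq2 1.42.0, limma 3.58.1 on log2(FPKM + 1) and log2(FPKM + 0.1), other scalings, filters and nulls, a replicate block and leaving out each library. The code was tested on simulated data. The members and all gene lists were chosen with earlier results of these data known. Genes named were the 7 keratins, Rela, listed genes (for lists of over 6 genes, the 6 of highest mean FPKM), chromosomal neighbours and the 5 genes nearest to Krt1 and Krt10; Krt28 and Krt7 are named as neighbours, and Krt9 as a list of 1 gene. The search of 50-base windows was added after seeing the data. Krt85, Elovl3, Cdh5 and Crygs of the lists were not analysed here. Values of 1 more gene in the lists are not reported here. Python 3.11.15, pandas 2.3.3, numpy 2.4.6, scipy 1.17.1 and matplotlib 3.10.9 were used.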

Additional observations from a re-analysis of the deposited data

How the results depend on the processing

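Over 18 alternatives Krt1 (log2 fold change 8.94 to 9.98) and Krt10 (9.29 to 9.87) were higher in KO and passed the test in all of them. Krt1 gave 9.01 without KO replicate 1. Krt78 lay between 0.99 and 1.53 and passed in all but the test against a fold of 2 (adjusted p = 0.413, edgeR glmTreat). Krt79 lay between 0.41 and 4.78 over the 17 alternatives that tested it; it dropped out where a mean count of at least 50 was required. Krt80 lay between -0.53 and -0.18 and passed as lower only in the limma fits on log2(FPKM + 1) and log2(FPKM + 0.1) (adjusted p = 0.0426 and 0.0393). Those fits used FPKM without TMM scaling, and their median log2 fold changes over all genes were -0.06 and -0.09. The number of suprabasal keratins called was 4, but 3 with a mean count of at least 50 or with glmTreat, and 5 with limma (Krt80) or without the filter on low counts (Krt2); it was 4 without each library in turn.

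Across all genes, 8253 calls became 2296 with glmTreat, by its stricter null, and 7282 to 8145 without each library in turn. The split was 4231 higher and 4022 lower, but 3709 and 4630 with library totals only, 3740 and 4642 with limma on log2(FPKM + 1), and 1480 and 816 with glmTreat. With library totals only the median of all genes was -0.09. The rise in the share of all counts taken by the 7 keratins was 1.24 percentage points, and 0.659 without Krt1; in the share of keratin counts it was 8.09 and 4.08. Leaving out each library gave 1.01 to 1.43 and 6.70 to 9.57 points. The correlations of the deviations of same-numbered libraries were 0.034, -0.010 and 0.061, within the range of the other pairs (-0.159 to 0.123). With 3 libraries per group, these values cannot decide whether the replicate numbers pair the samples. With the number as a replicate block, 8083 genes and the same 4 keratins were called. Krt2, Krt77 and Krt79 are limited by depth.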
